A study of Mus musculus with 6 samples.

Results

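The genes described here are the 2 insulin-like growth factor (IGF) ligands Igf2 and Igf1, the receptors Igf1r, Igf2r and Insr, and the noncoding RNA H19. They were found in the deposited table by gene symbol and make up 6 of its 54532 genes. All 6 passed the filter on low counts that kept 14867 genes for testing. They were measured by RNA sequencing of mouse muscle, with 3 control libraries and 3 libraries of Igf2 conditional knockout mice (Igf2 cKO). Mice of both groups were on a C57BL/6 background and carried loxP sites around exon 2 of both Igf2 alleles (Igf2f/f). The Igf2 cKO mice (Mck-Cre+; Igf2f/f) also carried a Cre recombinase transgene, and the controls (Mck-Cre-; Igf2f/f) were littermates without it. The promoter of muscle creatine kinase (Mck) drives this Cre in striated muscle fibres, so fibroblasts, vessels, nerves and satellite cells of the tissue keep exon 2. The labels name neither the muscle nor the age or the sex of the mice. Nothing beyond separate samples is said of the replicates, so each p-value measures the spread between these samples. Values of 3 libraries are given in the order of their replicate numbers.

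IGF1 and IGF2 are secreted peptides related to insulin. Both signal through the IGF1 receptor, a tyrosine kinase encoded by Igf1r, and IGF2 can also act through the insulin receptor, encoded by Insr. The receptor encoded by Igf2r carries no kinase: it also binds mannose 6-phosphate, takes up IGF2 and delivers it to lysosomes. In most mouse tissues Igf2 is expressed from the paternal allele, and H19 and Igf2r are expressed from the maternal allele. IGF1 is a growth signal for adult muscle, whereas Igf2 and H19 are strongly expressed in the fetus and fall after birth, with H19 remaining abundant in skeletal muscle.

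Total counts per library ranged from 16184371 to 17905203, and between 20791 and 21401 genes had a count. The labelled tissue was checked against markers: all 13 skeletal muscle genes were tested, and their summed level lay between 109100 and 160900 CPM (counts scaled to a common library size with TMM factors). Heart markers summed to between 7.21 and 15.7 CPM, with Nppa at 0 in every library. Liver markers summed to between 0.0619 and 1.48 CPM, with Apoa1, Ttr and Fgb at 0.

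The coding part of Igf2 exon 2, as numbered in 6 of the 7 coding transcripts, holds the start codon of the growth factor. This exon was taken, by its number alone, to be the exon 2 that the study set out to remove. The labels give no positions of the loxP sites. The coding part is shown because the counts described next bear on whether this stretch was measured. It lies at chr7:142655654-142655810 (GRCm38, minus strand), is 157 bases long and comes from the first-numbered coding transcript of GENCODE M21, with the start codon in capitals. H19 carries the hairpin of a microRNA in an exon, and its mature forms are shown with the seed (bases 2 to 8) in capitals. They lie at chr7:142577112-142577133 and chr7:142577078-142577099 (minus strand) and were taken from RefSeq on GRCm38.p6.
Igf2 exon 2, coding part: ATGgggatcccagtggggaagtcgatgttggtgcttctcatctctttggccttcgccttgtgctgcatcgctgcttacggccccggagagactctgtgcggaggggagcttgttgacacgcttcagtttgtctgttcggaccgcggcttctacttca
mmu-miR-675-5p: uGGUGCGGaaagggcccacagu
mmu-miR-675-3p: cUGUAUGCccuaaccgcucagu

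Igf2, the targeted gene, had the fewest counts of the 6 and did not differ detectably between the groups. Igf2 (ENSMUSG00000048583, chromosome 7, 142650766 to 142666816, minus strand) measured 3.25, 2.41 and 2.55 CPM in the controls. The Igf2 cKO libraries had 1.84, 2.29 and 2.48 CPM. The groups overlapped, since Igf2 cKO replicate 3 lay above control replicate 2, and the extremes were both libraries numbered 1. The counts behind these values ran from 33 to 60 per library. Group means were 2.73 ± 0.450 CPM (SD, n = 3) in controls and 2.20 ± 0.330 CPM (SD, n = 3) in Igf2 cKO. The difference was -19.5%, with a 95% interval from -46.0% to 19.97% (log2 fold change -0.31, SE 0.25, adjusted p = 0.751 by the quasi-likelihood test of edgeR). Leaving out control replicate 1 gave a log2 fold change of -0.17, and leaving out Igf2 cKO replicate 1 gave -0.20. The lower end of the interval is less than a complete loss of these counts. In bulk tissue, fewer cells of a type and less RNA per cell cannot be told apart, and cells outside the fibres contribute to every value.

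The deposited Igf2 count was set against the annotation, because exon 2 is held by more than 1 annotated gene. Exon 2 spans chr7:142655654-142655816, has 163 bases and is exon 2 in 6 of the 7 coding transcripts of Igf2. The gene model Gm49394 (ENSMUSG00000115302, chromosome 7, 142650769 to 142669942), annotated on the same strand, contains all 163 of these bases. Gm49394 holds 3596 of the 5723 exonic bases of Igf2, among them all 540 coding bases of that transcript and 3284 of the 3287 bases of its last exon. Another 98 bases lie in exons of Igf2os, an antisense transcript of the opposite strand. In all, 64.5% of the exonic bases of Igf2 belonged to another gene as well. Of the 2029 bases that belonged to Igf2 alone, 1612 lay in first exons. Gm49394 itself had 0 counts in all 6 libraries.

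Genes without exonic bases of their own carried almost no counts in this table. Among genes lying wholly inside the exons of a same-strand gene with at least 1000 counts, 276 of 277 had no count in any library. For a host on the opposite strand these were 157 of 158. Contained genes of every type were included, small RNAs such as Mir675 (84 bases) among them. Of all 54532 genes, between 20791 and 21401 had a count in a given library. That is a number per library, not the share at 0 in all libraries. The contained genes were not matched to other genes by type or length. The share of protein-coding genes at 0 was 28.2% (4383 of 15563) where no base was shared and 90.4% (160 of 177) where all were. Of genes with 50 to 75% of their exonic bases shared, the range that holds Igf2, 20.6% (52 of 253) were at 0. Hgs, an endosomal sorting gene chosen as an example after its values were seen, is annotated under 2 identifiers that share 2897 bases, and these had 4 and 0 counts over all libraries. No source used here names the counting tool or says which gene, if either, took reads from shared bases. If neither did, as for the shared bases of Hgs, the Igf2 value covers mainly first exons and does not measure exon 2 or the coding sequence; it then cannot serve as a check of the genotypes. The map of Igf2 exons shows exon 2 among the shared stretches.

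**Figure D1:**
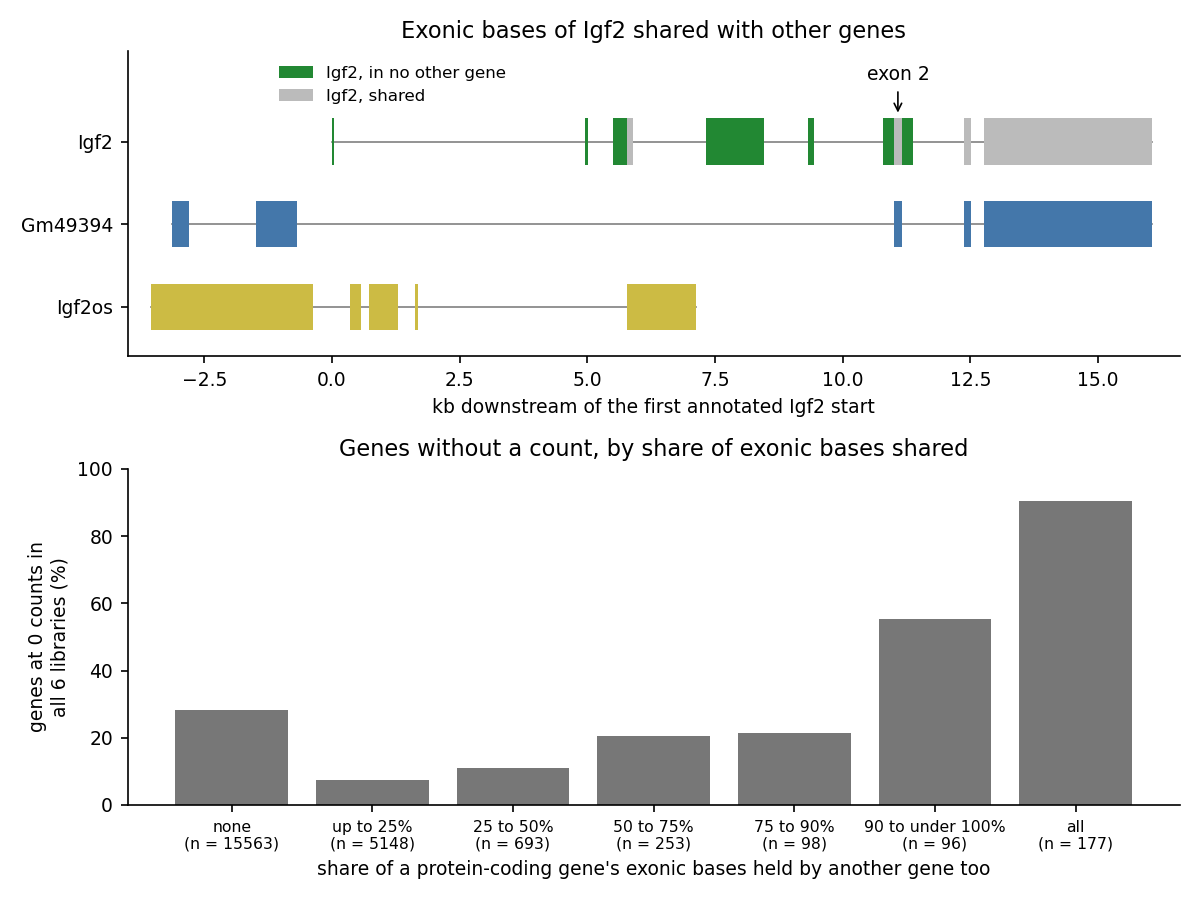
Top, exons of Igf2, Gm49394 and Igf2os in GENCODE M21 against the distance in kb downstream of the first annotated Igf2 start, with bases of Igf2 alone in green and shared bases in grey: exon 2 and the last exon are grey. Bottom, the percentage of protein-coding genes with 0 counts in all 6 libraries, by the share of their exonic bases that another gene also holds: it is 28.2% with none shared and 90.4% with all shared.

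The other genes did not have this limit to the same degree. H19 shares 225 of its 2460 exonic bases (9.15%) with small RNA genes, and Igf1, Igf1r, Igf2r and Insr share none. Per kilobase of unshared exon, Igf2 stood at 1.35 ± 0.222 CPM (SD, n = 3) in controls and 1.09 ± 0.162 CPM (SD, n = 3) in Igf2 cKO. Igf1 stood at 7.59 ± 2.12 CPM per unshared kilobase (SD, n = 3) in controls. For Igf2 this scale divides by all 2029 unshared bases, 1612 of them in first exons that lie in 5 separate blocks. A transcript holds a single first exon, so the scale can understate Igf2 and does not rank the ligands. The longest identical stretch between the coding sequences of Igf1r and Insr, 1 transcript each, was 19 bases, and that between Igf1 and Igf2 was 9.

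Per length, the order of levels was the same at most steps in every library. The mean FPKM (fragments scaled by gene length and library size, as deposited) over the 6 libraries was 350.3 for H19, 14.4 for Igf2r, 8.83 for Igf1, 8.29 for Insr, 2.53 for Igf1r and 0.429 for Igf2. H19 was above Igf2r in 6 of 6 libraries, by a mean ratio of 24.3, and its level was higher than that of 99.4% of the tested genes. Igf2r was above Igf1 in 6 of 6 libraries, with ranges of 13.1 to 14.9 and 5.61 to 11.9 FPKM. Igf1 and Insr did not differ beyond their spread: Igf1 was higher in 4 of 6 libraries and the ranges overlapped. Insr was above Igf1r and Igf1r above Igf2 in 6 of 6 libraries, by mean ratios of 3.32 and 5.93. FPKM divides by the full Igf2 length, on which Igf2 lay above 10.4% of the tested genes. Per unshared kilobase Igf1r and Igf2 were closer, at 2.84 and 1.35 CPM in controls and at 2.25 and 1.09 CPM in Igf2 cKO. Both scales can understate Igf2, so its place in this order is uncertain.

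None of the 6 genes was called at an adjusted p under 0.05 (0 of 6 by edgeR, DESeq2 and limma-voom alike), against 37 of all 14867 genes (0.249%) by edgeR. DESeq2 called 1.57% and limma-voom 0.229% of the genes they tested. At an unadjusted p under 0.05 the count was 1 of 6, Igf1r, against 9.93% of all genes. The series' own rule (a log2 fold change beyond 1 either way with an unadjusted p under 0.05) took 0 of 6, against 1.58% of all genes. No gene of the 6 had groups that did not overlap, against 15.5% of all genes in either direction and 7.67% lower in Igf2 cKO.

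**Figure D2:**
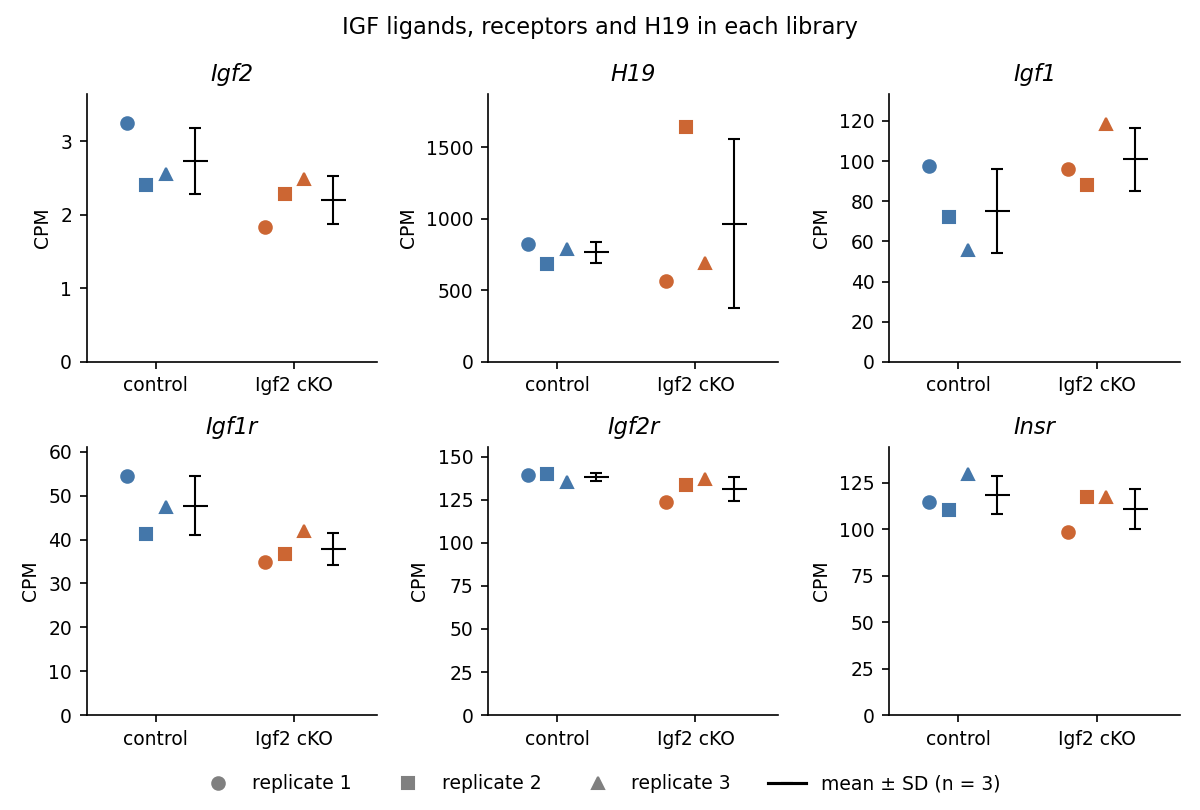
Level in CPM (linear axis from 0) of each of the 6 genes in control and Igf2 cKO libraries; each symbol is 1 library, and the bar gives the mean ± SD (n = 3). H19 at 1643 CPM in Igf2 cKO replicate 2 stands apart, and the groups overlap in every panel.

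Igf1, the second ligand, was higher on average in Igf2 cKO muscle, short of the threshold. Igf1 (ENSMUSG00000020053, chromosome 10, 87858265 to 87937042, plus strand) measured 97.5, 72.0 and 55.9 CPM in the controls. Igf2 cKO muscle had 96.2, 88.0 and 118.3 CPM. Control replicate 1 lay among the Igf2 cKO libraries, and control replicates 2 and 3 lay below all of them. The means were 75.2 ± 20.96 CPM (SD, n = 3) and 100.8 ± 15.7 CPM (SD, n = 3). This gave a log2 fold change of 0.42 (SE 0.20, 95% interval -0.03 to 0.88, adjusted p = 0.533 by edgeR). It was 0.25 without control replicate 3 and 0.65 without control replicate 1.

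Control replicate 3, the lowest for Igf1, also had the lowest summed levels of several other cell types. Its 12 fibroblast genes summed to 7390 CPM, against 9082 to 14470 CPM in the other libraries. Its 10 macrophage genes summed to 352.5 CPM, against 420.5 to 711.8 CPM. Its adipocyte genes (7 of 8 tested, Ucp1 at 0 in every library) summed to 492.4 CPM, and Igf2 cKO replicate 3, the highest for Igf1, had the highest adipocyte sum, 1525 CPM. In the other lists Igf2 cKO replicate 3 ran against the Igf1 order, with the second lowest sums of all libraries for fibroblast (9082 CPM) and macrophage genes (420.5 CPM). None of these 3 lists had a called gene, and their part in the Igf1 values was not tested.

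Igf1r, the kinase receptor for both growth factors, was lower on average in Igf2 cKO muscle, also short of the threshold. Igf1r (ENSMUSG00000005533, chromosome 7, 67952827 to 68233668, plus strand) measured 54.6, 41.3 and 47.4 CPM in the controls. The cKO values were 35.0, 36.7 and 41.9 CPM. A single pair of libraries made the groups overlap, control replicate 2 and Igf2 cKO replicate 3. Means were 47.8 ± 6.65 CPM (SD, n = 3) and 37.8 ± 3.58 CPM (SD, n = 3), a difference of -20.8% with a 95% interval from -35.0% to -3.41%. On the log2 scale Igf1r differed by -0.34 (SE 0.13, unadjusted p = 0.0264, adjusted p = 0.420 by edgeR), and 4.82% of all genes were lower at an unadjusted p under 0.05.

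Igf2r, which clears IGF2 from the cell surface, was the steadiest of the 6. Igf2r (ENSMUSG00000023830, chromosome 17, 12682406 to 12769664, minus strand) measured 139.4, 139.9 and 135.4 CPM in the controls. The corresponding cKO values were 123.4, 133.8 and 136.8 CPM. The highest library was 1.13 times the lowest, and the groups overlapped. This gave a log2 fold change of -0.07 (SE 0.09, 95% interval -0.28 to 0.14, adjusted p = 0.858 by edgeR).

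Insr, the insulin receptor, also differed by less than its spread. Insr (ENSMUSG00000005534, chromosome 8, 3122061 to 3279617, minus strand) measured 114.7, 110.4 and 129.7 CPM in the controls. In Igf2 cKO muscle the values were 98.3, 117.3 and 117.2 CPM. The groups overlapped, with the highest value in control replicate 3 and the lowest in Igf2 cKO replicate 1. For Insr the log2 fold change came to -0.09 (SE 0.11, 95% interval -0.35 to 0.16, adjusted p = 0.855 by edgeR).

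H19 was abundant and spread widely among the Igf2 cKO libraries. H19 (ENSMUSG00000000031, chromosome 7, 142575529 to 142578143, minus strand) measured 827.5, 685.7 and 787.0 CPM in the controls. The Igf2 cKO libraries had 562.9, 1643 and 693.4 CPM, so a single library lay above all controls and the others lay below the control median. The means were 766.8 ± 73.1 CPM (SD, n = 3) and 966.5 ± 589.7 CPM (SD, n = 3). The highest Igf2 cKO library was 2.92 times the lowest, a range that 1.70% of the 13777 genes with a mean CPM of at least 1 matched or exceeded in that group. In controls the range was 1.21 times, which 54.3% of those genes matched. This gave a log2 fold change of 0.33 (SE 0.36, 95% interval -0.48 to 1.15, adjusted p = 0.830 by edgeR). Without Igf2 cKO replicate 2 its sign turned, to -0.29 (adjusted p = 0.543 by edgeR).

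Igf2 cKO replicate 2 also stood apart in genes of fibre type. Myh4, the myosin of the fastest fibres, was lowest there, at 17310 CPM against 28680 to 46330 CPM in the other libraries. Myh2, the myosin of fast oxidative fibres, was highest there, at 2921 CPM against 921.6 to 1626 CPM. Mb, the oxygen-binding myoglobin, was highest there as well, at 2159 CPM against 596.8 to 1166 CPM. Markers of regenerating fibres, in which H19 is known to be expressed, summed to 852.6 CPM in that library, against 669.6 and 1349 CPM in the other Igf2 cKO libraries and 1736 to 3102 CPM in controls. Most of that sum was Actc1, cardiac actin (log2 fold change -1.44, adjusted p = 0.162 by edgeR). The part of fibre type and regeneration in the H19 values was not tested.

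**Figure D3:**
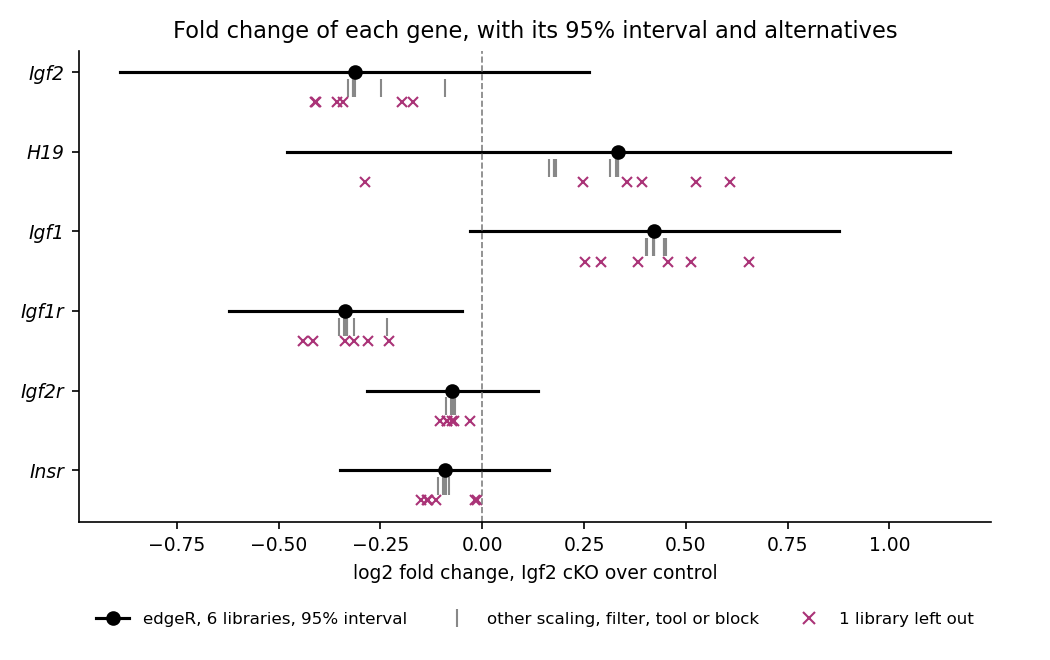
Log2 fold change of each gene, Igf2 cKO over control: black points are the edgeR values over 6 libraries with 95% intervals, grey ticks other scalings, filters, tools or the replicate block, and crosses fits with 1 library left out. Of all these values, a single one, H19 without Igf2 cKO replicate 2 at -0.29, lies on the other side of 0 from its gene's main value.

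In the authors' deposited table each Igf2 cKO library was compared with the control library of the same number. H19 had log2 fold changes of -0.55, 1.26 and -0.18 for replicates 1 to 3 in the authors' deposited table, with the smallest adjusted p, 0.239, for replicate 2. For Igf1 the authors' deposited table gave -0.02, 0.29 and 1.08, and an adjusted p of 0.48 for replicate 3. In the authors' deposited table Igf1r was lower each time, at -0.64, -0.17 and -0.18, with an adjusted p of 1. None of the 6 genes passed there, where 0.448%, 0.346% and 0.716% of the genes with an adjusted p did.

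Ratios between the genes were taken within each library from FPKM, which removes any scaling between libraries. The FPKM of Igf1 was 17.4, 17.3 and 12.7 times that of Igf2 in controls and 30.2, 22.2 and 27.5 times in Igf2 cKO. The ratio was higher in every Igf2 cKO library than in any control, by 0.76 on the log2 scale. Its two-sided exact permutation p was 0.1 (3 against 3 libraries), the smallest this design allows, and 0.2 after Benjamini-Hochberg adjustment over the 4 ratios. Igf1r stood at 0.389, 0.306 and 0.299 of the Insr level in controls and at 0.291, 0.256 and 0.292 of it in Igf2 cKO. The receptor ratio was lower in every Igf2 cKO library than in any control, by a narrow margin (log2 difference -0.24, exact permutation p = 0.1, adjusted p = 0.2). Without control replicate 1 the difference was -0.12. Igf2r to Igf1r was 4.61, 6.11 and 5.15 in controls and 6.36, 6.58 and 5.90 in Igf2 cKO, with overlap (exact permutation p = 0.2, adjusted p = 0.267). H19 to Igf2 overlapped widely, with Igf2 cKO replicate 2 at 1670 and the other libraries between 592.8 and 717.9 (exact permutation p = 0.5). Ratios with Igf2 rest on its 33 to 60 counts and on whatever bases those counts cover. FPKM divides by the full Igf2 length, so these ratios can be too large and do not rank the ligands. Markers of satellite cells, the muscle stem cells, had a higher sum in every Igf2 cKO library than in any control. They summed to between 190.6 and 217.7 CPM in controls and between 234.9 and 276.0 CPM in Igf2 cKO (all 8 tested, 0 called, exact permutation p = 0.1). The single markers varied: 7 had log2 fold changes above 0 and 1 below, with a median of 0.16. Values ran from -0.59 for Myf5 to 0.71 for Myod1, and Pax7 was at 0.09. The largest part of the sum was Itga7. It stood at 104.2 ± 4.35 CPM (SD, n = 3) in controls and 126.8 ± 7.53 CPM (SD, n = 3) in Igf2 cKO. The sum therefore does not count satellite cells. Red cell markers were lower in every Igf2 cKO library, at 312.9 to 358.0 CPM against 449.5 to 617.7 CPM (5 of 7 tested, 0 called, exact permutation p = 0.1). Sums of the regenerating fibre and lymphocyte lists also did not overlap between the groups (exact permutation p = 0.1 each). The sums of the remaining marker lists overlapped. These p-values of sums were not adjusted, and 15.5% of all single genes did not overlap either. The part of any of these cell types in the ratios was not tested.

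**Figure D4:**
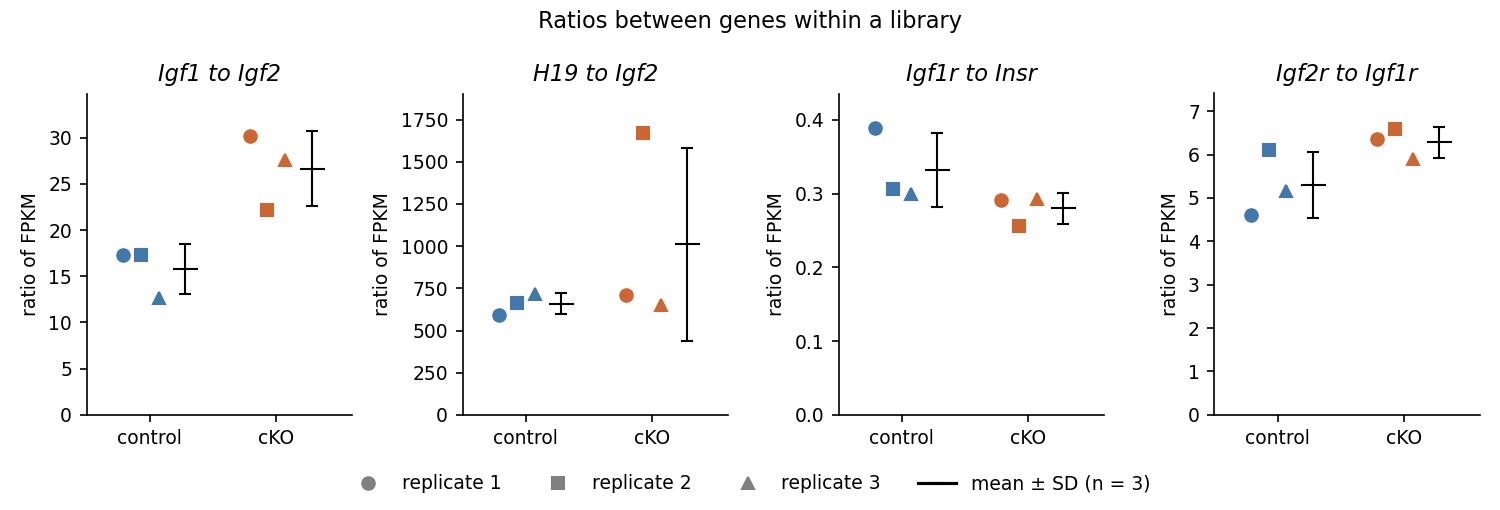
Ratio of the FPKM of 2 genes within each library (linear axes from 0), control and Igf2 cKO; each symbol is 1 library and the bar gives the mean ± SD (n = 3). Igf1 to Igf2 lies between 12.7 and 17.4 in controls and between 22.2 and 30.2 in Igf2 cKO.

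No gene around H19 and Igf2 on chromosome 7 was called. Of 14 listed genes, H19 and Igf2 included, 8 were tested, 0 were called and 1 had an unadjusted p under 0.05, a share near the 9.93% of all genes, and their median log2 fold change was 0.02 against 0.00 for all genes. That 1 gene was Nctc1, a noncoding RNA 16.9 kb from H19 whose region is known for a muscle enhancer. Nctc1 had 80.3, 65.1 and 85.7 CPM in controls and 137.9, 79.8 and 112.3 CPM in Igf2 cKO muscle. Igf2 cKO replicate 2 was thus the lowest of its group for Nctc1 and the highest for H19. On the log2 scale Nctc1 was higher by 0.51 (SE 0.19, adjusted p = 0.426 by edgeR). The troponin genes Tnnt3 and Tnni2, of fast fibres, had log2 fold changes of -0.10 and -0.02. Lsp1, Mrpl23 and Ctsd, which encodes a lysosomal protease, had values of 0.01, 0.04 and 0.08.

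Near Igf2 itself, which lies 72.6 kb from H19, little RNA was counted. Counts of Igf2os were 1, 7 and 9 in controls and 6, 11 and 6 in Igf2 cKO. Ins2, an insulin gene 11.8 kb from Igf2, had 0, 1 and 2 counts in controls and none in Igf2 cKO. Th, tyrosine hydroxylase, had at most 2 counts in a library. Syt8, on the far side of H19, had 3, 5 and 4 counts in controls and 18, 6 and 2 in Igf2 cKO. These 4 genes were too low to be tested. The row of Mir675, whose 84-base hairpin lies wholly inside an H19 exon, was at 0 in every library, as were nearly all genes contained in the exons of another, so it says nothing of the microRNAs printed above. The row of Mir483, which lies between exons of Igf2, was at 0 in every library too.

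**Figure D5:**
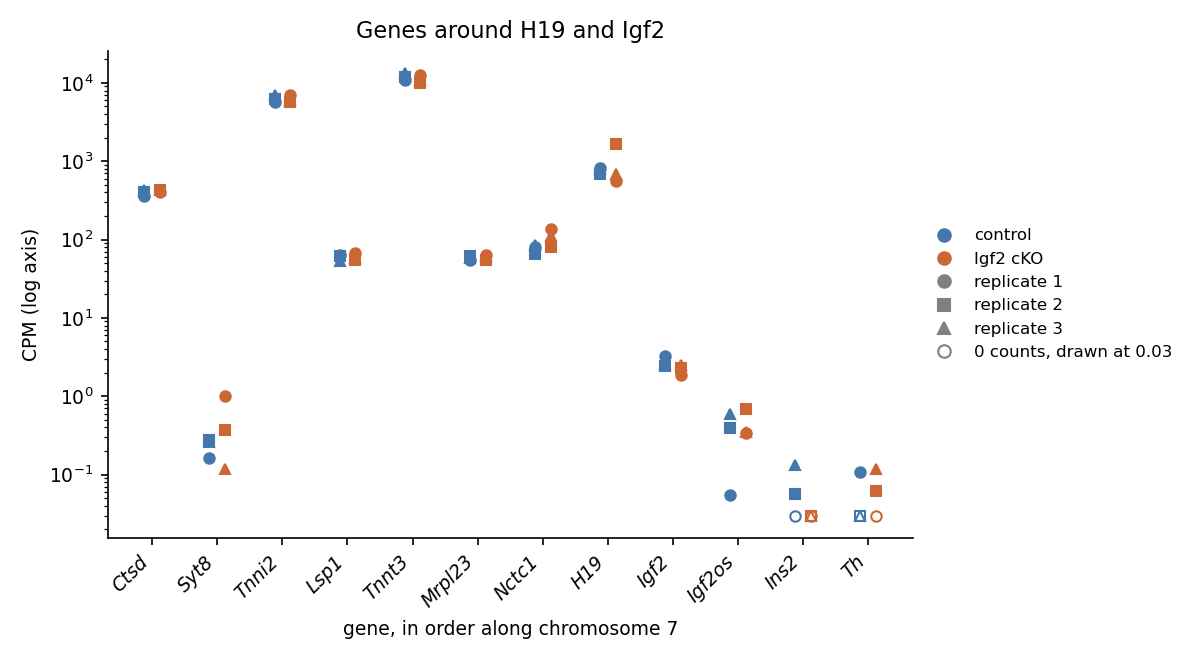
Level in CPM (log axis) of genes in their order along chromosome 7 around H19 and Igf2, for each control and Igf2 cKO library; open symbols mark 0 counts. H19 in Igf2 cKO replicate 2, at 1643 CPM, lies above the other libraries, while Nctc1 beside it is highest in Igf2 cKO replicate 1, at 137.9 CPM.

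On chromosome 17, 5 of 9 listed genes, Igf2r itself included, were tested and 0 were called, with a median log2 fold change of 0.01. Airn, the noncoding RNA that silences the paternal Igf2r allele, was counted 125, 120 and 110 times in controls and 107, 121 and 113 times in Igf2 cKO (log2 fold change -0.04, adjusted p = 0.967 by edgeR). Its transcript runs opposite to Igf2r, and the exons of Igf2r share no base with it. Without a stated strand setting, reads from Igf2r introns that fall on Airn exons cannot be separated from Airn. Slc22a3, an organic cation transporter imprinted in the placenta, ran from 18 to 48 counts in controls and from 32 to 81 in Igf2 cKO (log2 fold change 0.75, adjusted p = 0.639). Tcp1, a chaperonin subunit, and Mrpl18, a mitochondrial ribosome protein, had values of 0.10 and 0.01. Slc22a2 and Mas1 were too low to be tested, and Plg, plasminogen, had no count.

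The wider IGF axis was described from 6 lists with 69 genes besides the 6. Of these, 53 were tested, 1 was called and 5 had an unadjusted p under 0.05, 1 higher and 4 lower. Their median log2 fold change was 0.02, against 0.00 over all genes, with 31 above and 22 below 0. Over all genes 0.249% were called and 9.93% had an unadjusted p under 0.05, so the 5 of 53 genes were no larger a share than that.

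Among relatives of the ligands, 1 of 7 was tested, Insl3, a hormone of the relaxin family, at -0.32 (adjusted p = 0.829). Of 14 binding proteins and their proteases, which hold and release IGFs outside the cell, 12 were tested, none was called and the median was 0.06. Igfbp5 and Igfbp3 had the smallest p, at log2 fold changes of 0.36 (adjusted p = 0.616) and 0.30 (adjusted p = 0.625), and Igfbp1 was at 0. Igfbp5 was lowest in control replicate 3, at 533.9 CPM, and highest in Igf2 cKO replicate 3, at 1007 CPM, as Igf1 was. Of 10 genes that regulate Igf2 RNA, all 6 tested had values above 0, with a median of 0.14 and none called. The smallest was 0.01, for Ctcf. Over all genes, 7547 of 14867 had values above 0. Igf2bp3, an RNA-binding protein of fetal tissue that binds Igf2 RNA, was counted between 11 and 12 times in controls and between 16 and 24 times in Igf2 cKO (log2 fold change 0.71, adjusted p = 0.543). Zfp568, a repressor of a placental Igf2 promoter, was at 0.19 (adjusted p = 0.673).

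Of 16 genes acting directly below the receptors, 15 were tested and none was called. Sos1, the exchange factor that passes the signal to Ras, stood at 38, 39.04 and 42.4 CPM in controls and at 29.6, 35.4 and 32.3 CPM in Igf2 cKO, without overlap. On the log2 scale this was a difference of -0.30 (SE 0.10, adjusted p = 0.372 by edgeR). Pik3r1, a regulatory subunit of phosphoinositide 3-kinase, was at 0.17 (adjusted p = 0.749).

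Of 12 genes that restrain the receptors, all were tested and 1 was called. This was Socs1, a cytokine-induced inhibitor that can also promote loss of insulin receptor substrates. Socs1 fell from 27.3, 93.1 and 57.9 CPM in controls to 5.13, 7.49 and 1.715 CPM in Igf2 cKO (log2 fold change -3.64, SE 0.54, adjusted p = 0.0475 by edgeR). The call was lost when any library other than Igf2 cKO replicate 2 was left out. Socs3, its close relative, stood at 30.2, 193.4 and 76.45 CPM in controls and at 13.8, 14.2 and 5.50 CPM in Igf2 cKO, and missed the threshold in edgeR (log2 fold change -3.16, adjusted p = 0.144) but passed in DESeq2 (adjusted p = 0.0111). The median of these 12 genes was -0.14.

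Of 10 relatives and processing partners of the receptors, 7 were tested, none was called and the median was -0.11. Sorl1, a sorting receptor known to bind the insulin receptor, had a log2 fold change of 0.23 (unadjusted p = 0.029, adjusted p = 0.430). Furin, the protease that cleaves the proreceptors, had one of -0.23 (unadjusted p = 0.0408, adjusted p = 0.477).

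The 6 genes were also compared with all others by their pattern over the 6 libraries, as a description without a test. Likeness was Pearson's r of log2 CPM over 6 libraries among 13771 genes averaging 1 CPM or more, and the libraries' depth and composition are shared by all genes. Closest to Igf2 were Paxip1 (r = 0.993), Gm45133 (0.981) and Ppp2r3d (0.978). Without the 2 libraries farthest from the median of Igf2 these were 0.969, 0.884 and 0.704. Closest to H19 were Gsto1 (0.988), Aph1a (0.986) and Gm12346 (0.982), which without its 2 farthest libraries stood at 0.886, 0.748 and 0.967.

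Igf1 was followed most closely by Nudt4 (r = 0.995), Opn3 (0.985) and Sptlc1 (0.982), over the same 6 libraries. Nudt4 ran from 252.0 CPM in control replicate 3 to 321.7 CPM in Igf2 cKO replicate 3, the libraries in which Igf1 was lowest and highest. Igf1r was followed by Usb1 (0.991), Zfp292 (0.988) and Wdr44 (0.982). For Igf2r the closest were Dach1 (0.998), Slc18a2 (0.994) and Ubox5 (0.993). For Insr they were Uprt (0.999), Rbm41 (0.997) and Nbr1 (0.993). Between 20 and 39 genes reached an r of 0.95 or more with each of the 6. Among so many genes compared over 6 libraries, some reach a high r by chance, and how many would was not tested. The named genes were picked for the highest r over these same libraries, so their r values do not show shared regulation. Their values without 2 libraries come from the same picked genes and are no separate check. Among the 15 pairs of the 6 genes themselves, Igf2 and Igf1r were most alike over 6 libraries, with r = 0.936. Without the 2 farthest libraries for Igf2 it was 0.961, but values from so few libraries shifted widely. Igf2 and Igf2r went from 0.824 to 0.215 in this way. H19 and Igf1r went from -0.08 to 0.972 without the 2 farthest for H19.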

How the data were processed

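A commercial provider sequenced the RNA of 6 mouse muscle samples (Illumina NovaSeq), per the labels. No source used here names the aligner, counting tool, strand setting, build or annotation. The authors deposited, per the file headers, raw counts and FPKM values for each gene and library, a gene length, and the authors' log2 fold change, p-value and adjusted p-value for single pairs of libraries. Another 6 columns of per-sample values match no sample title and were not used.

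Counts were tested with edgeR 4.0.16 in R 4.3.3 (quasi-likelihood F test, filterByExpr, TMM, genotype alone), with Benjamini-Hochberg adjustment over 14867 genes. The fit was tested on simulated data. Genes were called at an adjusted p under 0.05. Standard errors come from the F statistic. The order of levels and the ratios use FPKM. Two-sided exact permutation tests were run for the ratios and, without adjustment, for the summed CPM of each list. Exon sharing was computed from GENCODE M21 (GRCm38), which holds 54495 of the listed identifiers, 98.3% of the table's genes having the same start and end there.

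Besides the 6 genes, the text names the listed genes around Igf2 and Igf2r (1 is not reported here), called genes and the 2 with the smallest p of each pathway list, and the 3 genes most like each of the 6. Members and lists were chosen with earlier results of these data known. Alternatives were other size factors and filters, DESeq2 1.42.0, limma 3.58.1 (voom, and log2 FPKM with pseudocounts of 0.1 and 1), a replicate block, other call rules and leaving out each library.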

Additional observations from a re-analysis of the deposited data

How the results depend on the processing

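Over 15 alternatives for each of the 6 genes, 89 of 90 log2 fold changes kept their direction and stayed short of the threshold. The exception was H19 without Igf2 cKO replicate 2, at -0.29, and leaving out any of the other libraries gave up to 0.61. The values ranged from -0.41 to -0.09 for Igf2, from 0.25 to 0.65 for Igf1 and from -0.44 to -0.23 for Igf1r. The adjusted p of Igf1 lay between 0.309 and 0.816, and that of Igf1r between 0.350 and 0.692. No scaling moved the median of all genes by over 0.1.

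The number of genes called, 37, became 282 without a filter on low counts, 220 with DESeq2, 62 at an adjusted p under 0.1 and 235 by the series' own rule of fold and unadjusted p. It ranged from 8 to 68 when 1 library was left out, the controls giving 8, 15 and 13 in order, Igf2 cKO replicate 2 giving 68 and Igf2 cKO replicate 3 giving 17. In the IGF axis lists, where Socs1 was called, 2 genes, Socs1 and Socs3, passed without a filter, with DESeq2 and by the series rule, and 0 passed with limma-voom or a CPM of at least 1 in 3 libraries. With 1 library left out the count was 0 or 1. The causes were not tested. None of the 6 genes was called under any of these settings.

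Same-numbered libraries did not deviate together (correlations of 0.163, 0.0581 and -0.0425 for replicates 1 to 3), and not every library correlated best with its own number, so the numbers were not taken as pairs. With the replicate number as a block, 35 genes were called, among them 0 of the 6. The blocked log2 fold changes were -0.31 for Igf2, 0.16 for H19, 0.45 for Igf1, -0.33 for Igf1r, -0.07 for Igf2r and -0.09 for Insr.

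Igf2 had 33 to 60 counts a library, so its values carry more counting error than those of the other genes.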
